A study of Mus musculus and Homo sapiens with 4 samples.

Results

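The insulin-like growth factor (IGF) axis was examined in mouse embryonic fibroblasts (MEFs) through 8 genes, selected by gene symbol: the ligand gene *Igf1*, the receptor gene *Igf1r* and the binding-protein genes *Igfbp2*, *Igfbp3*, *Igfbp4*, *Igfbp5*, *Igfbp6* and *Igfbp7*. All 8 genes were found, each on a single entry, among the 23329 entries measured. Poly-A RNA was sequenced from 1 library of wild-type fibroblasts (MEF WT) and 1 library of fibroblasts lacking the long non-coding RNA NEAT1 (MEF NEAT1 KO). Both cultures came from E13.5 embryos of C57BL/6 mice, were used at passage 2 to 3, and were grown in DMEM mixed with Ham's F12 and 10% fetal calf serum. The number and sex of the embryos behind each culture and the structure of the KO allele are not given in the sources used here. The aim of the pair, as far as the labels state it, was to compare fibroblasts with and without NEAT1. With 1 library per genotype no difference has a replicate check, so no P-value is given. Genotype, culture and the sex of the embryos cannot be told apart.

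IGF-1 and IGF-2 are small secreted growth factors that activate the IGF-1 receptor, a tyrosine kinase which recruits IRS adaptors and switches on the PI3K-AKT and MAP kinase cascades. Most IGF in extracellular fluid is held by IGF-binding proteins, which carry the ligands, limit their access to the receptor and release them when proteases such as pregnancy-associated plasma protein A cut the binding protein. Fibroblasts secrete several of these proteins, and IGF-2 is the ligand typical of the embryo. IGFBP7 binds IGFs only weakly and is often treated as a relative of the family.

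The largest difference among the 8 genes was that of *Igfbp5*, at 7.06 RPKM (reads per kilobase of exon, scaled to the mapped reads of the library) in MEF WT and 18.1 RPKM in MEF NEAT1 KO, 2.57-fold higher in KO. *Igfbp3* was 1.65-fold and *Igfbp7* 1.34-fold higher in KO, whereas *Igfbp4* was 1.28-fold higher in MEF WT. *Igf1*, *Igf1r* and *Igfbp6* differed by 1.18-fold at most. On the scale log2((KO + 1)/(WT + 1)), which understates differences of genes with low values, 1 of the 8 genes lay above 1, that is beyond 2-fold, and 0 lay below -1. Of all entries 0.977% lay above 1 and 0.334% below -1, and of the 11463 entries with at least 1 RPKM in 1 library 1.99% and 0.68% did so. Beyond 1.5-fold (0.58) there were 2 of the 8 genes on the higher side and 0 on the lower side, against 2.4% and 2.58% of all entries, and against 4.68% and 5.01% of entries with at least 1 RPKM in 1 library. The median log2 ratio of the 8 genes was 0.16, beside -0.06 for the 10888 entries that reached 1 RPKM in each of the libraries. These genes were chosen with earlier results of the same libraries known, so their share beyond either fold is a description only.

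The promoters of 4 binding-protein genes are shown because these genes had the largest differences (*Igfbp5*, *Igfbp3*), the highest level (*Igfbp7*) and the largest difference in the opposite direction (*Igfbp4*). Each run is the RefSeq window of GRCm38.p6 from 250 bases before to 50 bases after the start site, 5′ to 3′ on the gene's own strand. Capitals mark a TATA box (TATAAA) or a GC box (GGGCGG) on either strand. The windows lie at chr1:72874816-72875115 (minus strand), chr11:7213874-7214173 (minus strand), chr5:77407996-77408295 (minus strand) and chr11:99040994-99041293 (plus strand), in the order printed.
Igfbp5: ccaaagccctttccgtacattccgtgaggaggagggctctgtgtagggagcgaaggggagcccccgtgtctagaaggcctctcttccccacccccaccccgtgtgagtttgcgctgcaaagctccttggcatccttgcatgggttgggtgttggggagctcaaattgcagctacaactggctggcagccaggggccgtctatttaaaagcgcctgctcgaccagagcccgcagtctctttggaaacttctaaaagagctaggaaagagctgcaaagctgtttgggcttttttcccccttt
Igfbp3: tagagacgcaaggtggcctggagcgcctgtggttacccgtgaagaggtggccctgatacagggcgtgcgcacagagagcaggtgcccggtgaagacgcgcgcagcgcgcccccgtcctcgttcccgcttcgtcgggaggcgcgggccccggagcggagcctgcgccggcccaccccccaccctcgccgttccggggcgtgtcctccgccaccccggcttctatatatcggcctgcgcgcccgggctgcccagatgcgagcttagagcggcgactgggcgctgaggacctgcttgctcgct
Igfbp7: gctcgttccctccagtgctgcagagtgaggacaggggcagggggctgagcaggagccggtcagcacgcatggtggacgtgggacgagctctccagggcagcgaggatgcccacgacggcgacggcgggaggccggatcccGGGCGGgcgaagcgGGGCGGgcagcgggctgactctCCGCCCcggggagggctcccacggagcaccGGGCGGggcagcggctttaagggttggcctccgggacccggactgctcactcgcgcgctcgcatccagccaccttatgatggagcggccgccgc
Igfbp4: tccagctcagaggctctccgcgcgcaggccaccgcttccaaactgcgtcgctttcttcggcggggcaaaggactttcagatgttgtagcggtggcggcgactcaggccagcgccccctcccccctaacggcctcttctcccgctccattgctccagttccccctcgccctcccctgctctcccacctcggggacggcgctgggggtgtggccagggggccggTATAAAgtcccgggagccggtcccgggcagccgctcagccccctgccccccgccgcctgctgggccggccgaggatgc

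With positions counted from the start site, Igfbp4 held a TATA box at -28 and Igfbp7 held 4 GC boxes between -110 and -44. The windows of Igfbp5 and Igfbp3 held neither motif in these letters. The Igf1 window (chr10:87860861-87861160) lies inside the Igf1 entry, which starts at 87859056, so the region around that start was not searched. Over the 9 windows of the 8 genes the TATA box letters were found in 2 and the GC box letters in 3. The shares of 32851 promoter windows of the same length were 13.6% and 35.7%. The second TATA match was that of Igfbp6, on the opposite strand (TTTATA) and further from the start site, at -148. The other motifs searched, on both strands and with overlaps allowed, were the E-box (CACGTG), the AP-1 site (TGANTCA), the AP-2 site (GCCNNNGGC), the FOXO site (TGTTTAC), the CREB site (TGACGTCA), the SMAD box (GTCTAGAC), the STAT site (TTCNNNGAA) and the core of the interferon-stimulated element (GAAANNGAA). Of these the AP-2 letters stood in the Igfbp5 window (GCCAGGGGC, at -64), the AP-1 letters in the Igf1 window and in 1 of the windows of Igfbp2, and the E-box in the other Igfbp2 window. AP-2 letters occurred in 16.6%, AP-1 letters in 7.81% and the E-box in 7.15% of all windows. FOXO, CREB, SMAD, STAT and interferon letters occurred in 0 of the 9 windows and in 3.65%, 1.79%, 0.213%, 8.3% and 8.56% of all windows. G and C made up 49.7% to 76.0% of the 9 windows, and 5 of the 9 exceeded 61.7%, the upper quartile of all windows, whose median was 52.7%.

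Several properties of the libraries stood beside these values. *Neat1* had 29.5 RPKM in MEF WT and 2.01 RPKM in MEF NEAT1 KO, in the direction of the labels. With the commonest step of the lowest values taken as 1 read, the depth was about 31400000 reads for MEF WT and 29600000 reads for MEF NEAT1 KO. All 10 genes of a fibroblast list exceeded 1 RPKM in both libraries, while 5 of 6 endothelial, 5 of 6 epithelial and 5 of 6 skeletal muscle markers stayed under 1 RPKM in both. Other lineages were less absent: 3 of 6 cartilage, 2 of 6 bone, 2 of 6 fat and 2 of 5 neural markers reached 1 RPKM in 1 library. Among them the cartilage collagen gene *Col2a1* had 26.65 RPKM in MEF WT and 23.3 RPKM in KO, and the bone factor gene *Runx2* 6.91 and 5.55 RPKM. All 10 macrophage markers were higher in KO, with a summed level of 21.5 RPKM in MEF WT and 52.7 RPKM in KO, although 5 of the 10 stayed under 1 RPKM in both, among them *Ptprc*, which encodes the leukocyte antigen CD45 (0.0449 and 0.0813 RPKM). Each of 12 interferon-stimulated genes was higher in KO (sum of 183 and 1158 RPKM), and all 10 mitosis genes were lower in KO (sum of 78.5 and 37.8 RPKM). Of 39 entries placed on the Y chromosome 0 reached 1 RPKM in MEF WT and 3 did in KO. The log2 ratios of *Eif2s3y*, *Ddx3y* and *Kdm5d* on the Y chromosome, named after their values were seen, were 2.87, 2.35 and 1.56. *Xist* and *Tsix*, transcribed from the X chromosome, had log2 ratios of -4.82 and -3.67. By these genes the cultures differed in the sex of their cells, which cannot be told apart from genotype. The part of these differences in the levels of the IGF axis was not tested, and in bulk RNA fewer cells of a type and less RNA per cell cannot be told apart.

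*Igfbp5* encodes a binding protein that fibroblasts deposit in the extracellular matrix. It lies on chromosome 1 (chr1:72858065-72874865, mm10 coordinates, minus strand) and has 4 exons with 6006 exonic bases. Its 7.06 RPKM in MEF WT and 18.1 RPKM in KO corresponded to about 1330 and 3227 reads. The 2.57-fold difference had a 95% counting interval of 2.41 to 2.74, which covers the sampling of reads only and not the variation between cultures. By log2 ratio (1.25) Igfbp5 ranked 155 of 23329 entries, and by level it moved from rank 6822 in MEF WT to rank 3536 in KO. The entries nearest to it in the plane of both levels were *Pfkfb3* (6.74 and 18.1 RPKM), which encodes a regulator of glycolysis, at a distance of 0.0589 log2 units, *Gm5424* (7.47 and 17.6 RPKM) at 0.0825 and *Ass1* (7.31 and 17.1 RPKM) at 0.0918. This likeness rests on 2 libraries. Gm5424 and Ass1 cover almost the same interval of chromosome 2, so reads of one may be counted for the other.

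*Igfbp3*, which encodes the main carrier of IGFs in serum, had 24.4 RPKM in MEF WT and 40.2 RPKM in KO. The difference was 1.65-fold (95% counting interval 1.55 to 1.75), a log2 ratio of 0.70 that ranked 426 of 23329. Igfbp3 lies at chr11:7206091-7213923 on the minus strand and has 5 exons. *Igfbp2*, a binding protein with a preference for IGF-2, had 23.4 RPKM in MEF WT and 28.4 RPKM in KO, a fold of 1.21 (1.11 to 1.32) and a log2 ratio of 0.27. It lies at chr1:72824480-72852471 on the plus strand. Igfbp3 and Igfbp2 thus had nearly the same level in MEF WT, whereas in KO Igfbp3 stood above Igfbp2.

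*Igfbp7* and *Igfbp4* supplied most of the binding-protein transcripts in both libraries. Igfbp7 (chr5:77349240-77408045, minus strand) had 252 RPKM in MEF WT, rank 155 of all entries by level, and 338 RPKM in KO, rank 115. Its fold was 1.34 (1.31 to 1.38) and its log2 ratio 0.42. The end of the Igfbp7 entry shares 89 bases with *Polr2b*, an RNA polymerase II subunit gene that had 20.6 RPKM in both libraries. The interval given for the *Mir1928* entry (chr5:65820701-82739769) covers all of Igfbp7, and Mir1928 was listed at 0 in both libraries. *Igfbp4* (chr11:99041260-99052643, plus strand), which encodes the main substrate of pregnancy-associated plasma protein A, had 232 RPKM in MEF WT, rank 172, and 181 RPKM in KO, rank 275. Its level was 1.28-fold higher in MEF WT, a log2 ratio of -0.35, and it was the binding-protein gene with the lowest ratio of the 6. *Igfbp6* (chr15:102144186-102149512, plus strand), whose product prefers IGF-2, had 15.1 RPKM in MEF WT and 15.6 RPKM in KO. With about 527 and 515 reads its fold of 1.04 had a counting interval of 0.915 to 1.17, so that a difference was not detectable at this depth.

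**Figure D1:**
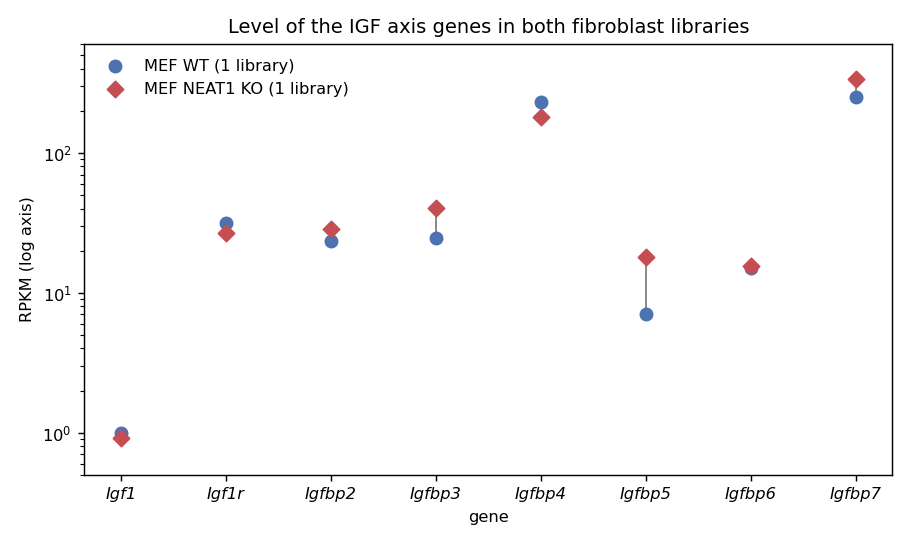
RPKM of the 8 IGF axis genes (logarithmic vertical axis) in the library of MEF WT (circles) and of MEF NEAT1 KO (diamonds), with a line joining both values of a gene. Igfbp5 (7.06 and 18.1 RPKM) has the longest line, and Igfbp4 and Igfbp7 lie above the other genes in both libraries.

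The order of the binding-protein genes by level was Igfbp7, Igfbp4, Igfbp3, Igfbp2, Igfbp6 and Igfbp5 in MEF WT. In KO Igfbp5 (18.1 RPKM) stood above Igfbp6 (15.6 RPKM), and the rest of the order was as in MEF WT. Which neighbours in this order differ beyond the spread between cultures could not be assessed with 1 library each. The summed level of the 6 genes was 553 RPKM in MEF WT and 622 RPKM in KO, 1.12-fold higher in KO, but without Igfbp7 the sum was lower in KO (log2 ratio -0.09). Shares of this sum do not depend on how a library is scaled. Igfbp4 made up 41.9% of the sum in MEF WT and 29.1% in KO, and Igfbp7 made up 45.5% and 54.4%. The share of Igfbp3 was 4.42% and 6.47%, that of Igfbp5 1.28% and 2.92%, that of Igfbp2 4.23% and 4.56%, and that of Igfbp6 2.73% and 2.52%. The RPKM of Igfbp4 was 32.8 times that of Igfbp5 in MEF WT and 9.98 times in KO.

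**Figure D2:**
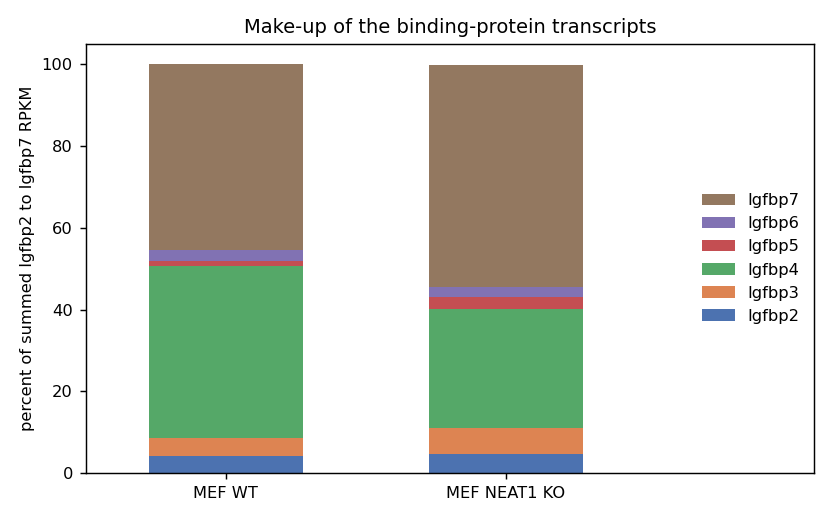
Percent of the summed RPKM of Igfbp2 to Igfbp7 (vertical axis) that each gene supplied in MEF WT and in MEF NEAT1 KO, 1 library per bar. The Igfbp4 segment is 41.9% in MEF WT and 29.1% in KO, and the Igfbp7 segment 45.5% and 54.4%.

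*Igf1* (chr10:87859056-87937047, plus strand, 5 RefSeq transcripts on its entry) had 1.00 RPKM in MEF WT and 0.914 RPKM in KO, the lowest level of the 8 genes. Its roughly 247 and 213 reads gave a fold of 0.913 (0.757 to 1.1), an interval that includes no difference, and its log2 ratio of -0.06 was 0.0022 after quantile normalization. *Igf2*, the other ligand gene, had 388 RPKM in MEF WT and 352 RPKM in KO, 388 times the level of Igf1 in MEF WT and 386 times in KO. The insulin genes *Ins1* and *Ins2* were listed at 0 in both libraries. *Igf1r* (chr7:67952257-68233667, plus strand, 21 exons) had 31.4 RPKM in MEF WT and 26.7 RPKM in KO, 1.18-fold higher in MEF WT, with a log2 ratio of -0.23. *Igf2r*, whose product carries IGF-2 to lysosomes for degradation, had 49.3 and 46.1 RPKM. *Insr*, the insulin receptor gene, had 5.80 RPKM in MEF WT and 6.36 RPKM in KO, so that the level of Igf1r was 5.42 times that of Insr in MEF WT and 4.2 times in KO. *Ghr*, the growth hormone receptor gene, had 16.2 RPKM in MEF WT and 10.5 RPKM in KO, 1.54-fold higher in MEF WT. *Insrr* was listed at 0 in MEF WT and had 0.00985 RPKM in KO.

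**Figure D3:**
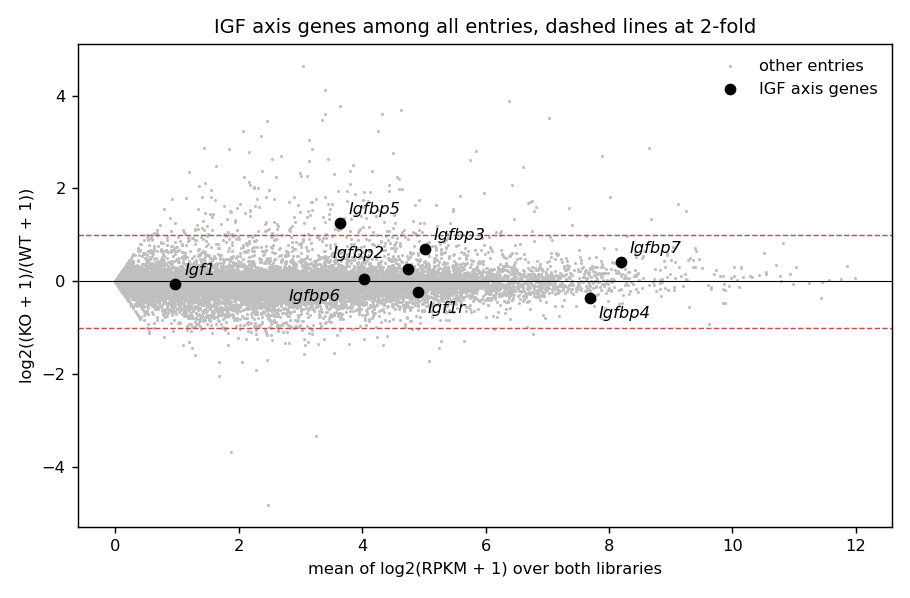
Log2 ratio of KO to WT (vertical axis, pseudocount of 1) against the mean of log2(RPKM + 1) over both libraries (horizontal axis) for all 23329 entries, with the 8 IGF axis genes in black and dashed lines at 2-fold. Igfbp5 (1.25) is the only one of the 8 genes beyond a dashed line.

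Genes around the axis were taken from lists of 65 further genes. By log2 ratio 1 of the 65 lay above 1 and 1 below -1, and 5 lay above 0.58 and 4 below -0.58. The shares of all entries past the same limits were 0.977% and 0.334%, and 2.4% and 2.58%, and among entries reaching 1 RPKM in 1 library 4.68% lay above 0.58 and 5.01% below -0.58. Among the 54 with at least 1 RPKM in 1 library the median log2 ratio was -0.05.

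Of 7 genes for proteases that cut binding proteins and for inhibitors of these proteases, 2 lay above 0.58 and 0 below -0.58. *Stc1*, which encodes the glycoprotein stanniocalcin-1, an inhibitor of pregnancy-associated plasma protein A, had 1.88 RPKM in MEF WT and 7.67 RPKM in KO, a fold of 4.08 (3.55 to 4.72) and a log2 ratio of 1.59 that ranked 97 of all entries. Its paralog *Stc2*, an inhibitor of the same protease, had 10.6 and 12.5 RPKM. *Adam12*, which encodes a metalloprotease able to cut IGFBP3 and IGFBP5, had 14.5 RPKM in MEF WT and 26.4 RPKM in KO, a fold of 1.82 (1.74 to 1.89). Stc1 and Adam12 were higher in the same library as Igfbp3 and Igfbp5, which holds for any gene higher in KO, and a link was not tested. *Pappa*, the gene of the protease itself, had 23.0 RPKM in MEF WT and 23.9 RPKM in KO, so that there was 12.3 times as much Pappa as Stc1 in MEF WT and 3.11 times in KO. *Htra1* had 52.3 and 48.7 RPKM and *Htra3* 2.23 and 2.48 RPKM. *Pappa2* stayed low, at 0.109 and 0.145 RPKM. Of 3 further binding-protein genes, *Igfbp1* and *Igfals*, the gene of the acid-labile subunit that joins IGF complexes in serum, were listed at 0 in both libraries, and *Igfbpl1* had 0.0233 and 0.0244 RPKM.

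Of 9 adaptor genes 2 lay below -0.58 and 0 above 0.58. *Irs1*, the gene of a docking protein of the activated receptor, had 12.7 RPKM in MEF WT and 7.08 RPKM in KO, 1.79-fold higher in MEF WT. *Grb10*, whose product restrains signalling by the insulin and IGF-1 receptors, had 128 RPKM in MEF WT and 84.4 RPKM in KO, 1.52-fold higher in MEF WT (log2 ratio -0.60, and -0.54 once ratios were centred on expressed entries). The related *Grb14* had 19.5 and 25.8 RPKM. *Irs2* had 10.6 and 9.48 RPKM, *Gab1* 5.25 and 4.65 RPKM, *Grb2* 22.1 and 21.1 RPKM, *Shc1* 53.8 and 58.1 RPKM and *Sh2b1* 18.2 and 19.7 RPKM. *Irs1*, the gene of a docking protein, and *Grb10*, that of a restraint on signalling, were thus both lower in KO, whereas Grb14 was 1.32-fold higher in KO. *Irs4* was listed at 0 in both. Of 20 genes of the PI3K-AKT-mTOR cascade *Foxo3*, which encodes a transcription factor that AKT holds in the cytoplasm, lay above 0.58 (16.3 and 25.1 RPKM, log2 ratio 0.59). *Pik3cb*, a catalytic PI3K subunit gene, lay below -0.58 (3.10 and 1.60 RPKM, log2 ratio -0.66), and the median log2 ratio of the 20 genes was -0.05. Of 10 genes known to be raised by FOXO factors, *Fbxo32*, a muscle atrophy ubiquitin ligase gene, had 3.43 RPKM in MEF WT and 7.35 RPKM in KO, and *Pdk4*, the gene of a kinase that inhibits pyruvate dehydrogenase, had 7.22 and 2.71 RPKM, a log2 ratio of -1.15. The other 8 lay within 0.58, the highest of them being *Bcl6*, a transcriptional repressor gene (7.21 and 10.9 RPKM, log2 ratio 0.53, and 0.59 once centred).

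**Figure D4:**
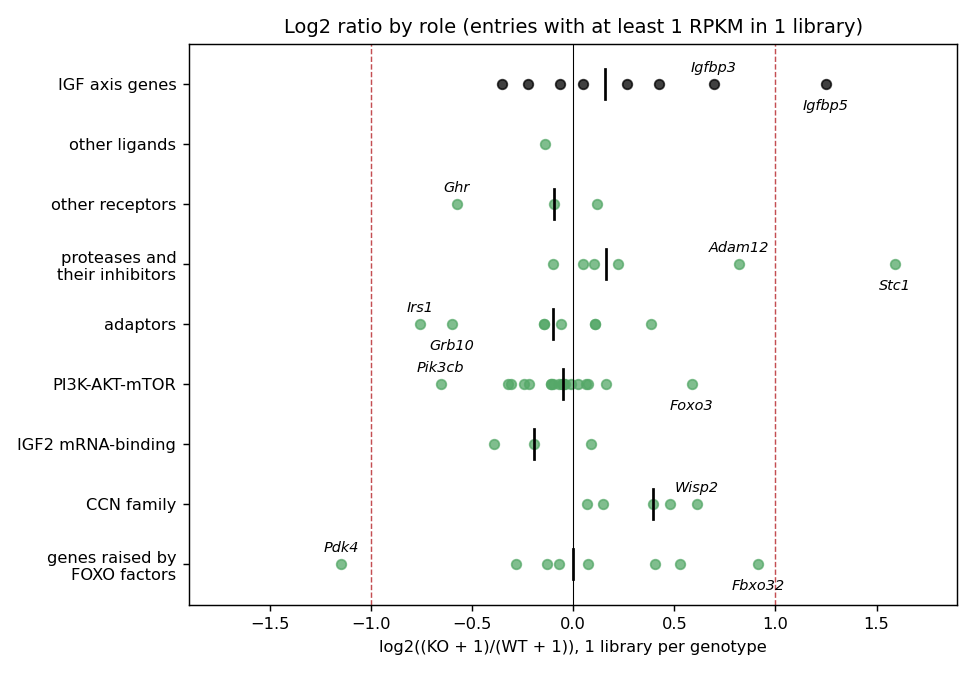
Log2 ratio of KO to WT (horizontal axis, pseudocount of 1, 1 library per genotype) of each gene with at least 1 RPKM in 1 library, grouped by role, with a bar at the median of groups of 3 or more genes and dashed lines at 2-fold. Stc1 (1.59), Igfbp5 (1.25) and Pdk4 (-1.15) lie beyond the dashed lines.

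The CCN proteins carry an amino-terminal domain related to that of the IGF-binding proteins. Of their 6 genes 1 lay above 0.58 and 0 below -0.58, against 2.4% and 2.58% of all entries. *Wisp2* had 113 RPKM in MEF WT and 173 RPKM in KO, a fold of 1.53 (1.48 to 1.58), *Nov* had 7.36 and 10.7 RPKM, and *Wisp1* had 42.3 and 55.9 RPKM. *Ctgf* (1851 and 2050 RPKM) and *Cyr61* (979 and 1027 RPKM) exceeded every binding-protein gene in level, with folds of 1.11 and 1.05. *Wisp3* had 0.0266 and 0.0238 RPKM. The 3 genes for proteins that bind the Igf2 mRNA lay within 0.58: *Igf2bp1* had 9.46 and 8.14 RPKM, *Igf2bp2* 26.4 and 28.1 RPKM and *Igf2bp3* 8.81 and 6.48 RPKM.

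A pair of the binding-protein genes are neighbours on chromosome 1: the end of Igfbp2 and the end of Igfbp5 face each other across 5593 bases. Their folds, 1.21 and 2.57, had counting intervals that did not overlap. Outside this pair, *Rpl37a* next to Igfbp2 had 35.1 RPKM in MEF WT and 31.6 RPKM in KO, and *Tnp1* next to Igfbp5 was listed at 0 in both libraries. On chromosome 11 Igfbp3 and Igfbp1 face each other in the same way across 3544 bases, and Igfbp1 was listed at 0, whereas *Tns3* on the other side of Igfbp3 had 67.4 and 69.3 RPKM. Igfbp4 lies 17070 bases from *Top2a*, a topoisomerase gene of dividing cells, which had 10.8 RPKM in MEF WT and 4.68 RPKM in KO. *Tns4*, on the other side of Igfbp4, had 0.274 and 0.0886 RPKM. *Spryd3* next to Igfbp6 had 44.1 and 47.5 RPKM, and *Soat2* (0.0912 and 0.0862 RPKM) was the other neighbour of Igfbp6. With the overlapping Polr2b and Mir1928 left out, the nearest entry on the Polr2b side of Igfbp7 was *Noa1* (10.2 and 10.5 RPKM). On the other side of Igfbp7 lay *Pea15b*, listed at 0 in both.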

How the data were processed

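RNA of mouse embryonic fibroblasts, wild type and NEAT1 KO, was sequenced as 1 poly-A library each. The authors deposited RPKM values, 1 per entry and library, with no scaling between libraries stated. The submitters' notes name CASAVA 1.8 and the builds mm10 and hg18, and aligner and counter are not given in the sources used here. Entry starts were counted from 0 and are printed from 1. The VCaP libraries were not used here.

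Log2 ratios used a pseudocount of 1 and no filter, and no test was made with 1 library per genotype. Also tried were centring on the median of expressed entries, a pseudocount of 0.1, only entries reaching 1 RPKM, quantile normalization, upper quartile scaling, 1 entry per symbol, the sum without the highest gene and a 1.5-fold threshold. Low values recurred in fixed ratios between the libraries (most often 1.06, 118 of 1567 entries below 0.1 RPKM in both). With exonic lengths from GENCODE M21, the commonest product of a low value and its length was taken as 1 read, hence depth and estimated reads. Multiples of 0.5 reads were also allowed, so this unit is a choice. Depth, read numbers and the widths of the counting intervals rest on it. In this estimate 49.2% and 50.7% of entries with few reads came within 2% of a multiple of 0.5 reads, so read numbers are approximate. The share expected without such a spacing was not computed. By RPKM and exonic length 92.6% and 93.6% of reads fell on entries, a share that does not use the value of 1 read and is no check of it. Counting intervals are exact (Clopper-Pearson) 95% binomial intervals.

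The genes and lists were chosen with earlier results of these data known. All 8 genes were named, with every gene of the ligand, receptor, binding-protein, protease, adaptor, mRNA-binding and CCN lists, genes past 0.58 of the cascade and FOXO lists, nearest chromosomal neighbours, and the 3 entries closest in level to Igfbp5. Mitosis and interferon genes are given as counts. Functions were tested on simulated data. Python 3.11.15, numpy 2.4.6, pandas 2.3.3, scipy 1.17.1 and matplotlib 3.10.9 were used.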

Additional observations from a re-analysis of the deposited data

How the results depend on the processing

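The log2 ratio of Igfbp5 ranged from 1.25 to 1.35 over the alternatives, that of Igfbp3 from 0.70 to 0.76, that of Igfbp2 from 0.27 to 0.33, that of Igfbp7 from 0.32 to 0.48 and that of Igfbp6 from 0.05 to 0.11. Igfbp4 ranged from -0.45 to -0.29 and Igf1r from -0.23 to -0.17, while Igf1 ranged from -0.12 to 0.0022, above 0 only after quantile normalization. With the 1.5-fold threshold 2 of the 8 genes were on the higher side in place of 1. The log2 ratio of the summed binding-protein genes was 0.17, 0.23 after centring, 0.08 after quantile normalization and -0.09 without Igfbp7. It uses no pseudocount, so that alternative gave no value. With a pseudocount of 0.1, 500 entries lay above 1 and 540 below -1, in place of 228 and 78. Of the 65 further genes around the axis, 3 lay beyond 2-fold in either direction with this pseudocount, in place of 2. Keeping 1 entry per symbol changed nothing, since each symbol stands on 1 entry. Of 110 values under alternatives 107 stayed within the tolerance (0.58 in log2, or 1.5 times for a count). This count says little about stability, because the log2 ratios of 6 of the 8 genes are themselves within 0.58. The changes of sign of Igf1 and of the summed genes therefore also passed. Keeping 1 entry per symbol or only entries reaching 1 RPKM could not change the ratio of any of the 8 genes. No paired analysis was possible because each genotype has 1 library. The counting intervals of Igf1 and Igfbp6 include no difference, and for all 8 genes the limit is the single library per genotype.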

Other observations

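Of the 10 fibroblast markers used to check the cultures 7 were higher and 3 lower in MEF NEAT1 KO, with a median log2 ratio of 0.29. *Pdgfra*, the receptor gene for platelet-derived growth factors, had 4.18 RPKM in MEF WT and 13.8 RPKM in MEF NEAT1 KO (log2 ratio 1.51), whereas its paralog *Pdgfrb* had 79.5 and 95.5 RPKM. *Col3a1*, a fibrillar collagen gene, had 223 and 442 RPKM, and *Col1a1* had 1477 and 1874 RPKM. The 3 lower ones were *Fn1*, the fibronectin gene (765 and 517 RPKM, log2 ratio -0.56), *Vim*, the vimentin gene (3151 and 2448 RPKM, -0.36), and *Twist1*, a mesenchymal transcription factor gene (23.6 and 20.3 RPKM, -0.21). Among markers of other cell types, named here after their values were seen, *Pparg*, which encodes a regulator of fat cell formation, had 4.87 RPKM in MEF WT and 0.745 RPKM in KO, *Nes*, the gene of the intermediate filament protein nestin, had 31.4 and 11.6 RPKM, and *Acta1*, the skeletal muscle actin gene, had 12.6 and 4.26 RPKM. *Fabp4*, a fat cell gene, went the other way from Pparg, with 16.3 RPKM in MEF WT and 28.9 RPKM in KO, and *Adipoq* was at 0 in MEF WT and 0.0274 RPKM in KO. With 1 library per genotype these values have no replicate check.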
